A study of Mus musculus with 4 samples.

Results

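The genes described here encode the SR proteins, the heterogeneous nuclear ribonucleoproteins (hnRNPs) and the core proteins of the spliceosome, the machine that removes introns from pre-mRNA. They were chosen by symbol, as every gene of the deposited expression table whose symbol starts with Srsf, Hnrnp, Snrp, Sf3a, Sf3b, U2af or Prpf. This gave 67 of the 14435 genes in the table, with 11 Srsf, 20 Hnrnp, 11 Snrp, 3 Sf3a, 6 Sf3b, 3 U2af and 13 Prpf genes. RNA was sequenced from the mouse macrophage cell line RAW264.7. The shMettl3 group consists of 2 libraries from cells that received an shRNA targeting Mettl3, whose protein is the methyltransferase that places N6-methyladenosine (m6A) on mRNA. The Control group consists of 2 libraries from cells that received a nonspecific shRNA. Every library came from cells exposed for 12 hours to lipopolysaccharide (LPS) of E. coli, so no comparison with resting cells could be made. The consequences of losing Mettl3 and any other difference between the transfected populations cannot be told apart, nor can fewer cells of a type and less RNA per cell in bulk samples.

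SR proteins bind exons through RNA recognition motifs and recruit the spliceosome through domains rich in arginine and serine. Many hnRNPs bind the same pre-mRNAs and often oppose the SR proteins, so the balance of both families sets which exons are kept. The Snrp genes encode proteins of the small nuclear ribonucleoproteins (snRNPs), the Sf3a and Sf3b genes the parts of the U2 snRNP that hold the branch site, the U2af genes the factor that marks the end of the intron, and the Prpf genes proteins named after yeast pre-mRNA processing mutants. Several SR and hnRNP genes also make transcripts that are destroyed by nonsense-mediated decay. The table holds 1 value per gene and library, so such transcripts cannot be told apart from productive mRNA, and splicing itself was not measured.

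Libraries held between 16342313 and 16767622 estimated counts in the shMettl3 group and between 17142599 and 17193639 in the Control group. Mettl3 had 11.5 and 11.2 CPM (counts scaled to library size) in shMettl3 libraries, against 30.9 and 29.9 CPM in Control libraries (log2 fold change -1.42, SE 0.10). The title of shMettl3 replicate 2 names Mettl3, while a treatment field of that library names METTL4. All 10 macrophage markers examined were detected in every library. In shMettl3 cells 7 of them were lower and 1 was higher (2 without Control replicate 1), and their summed level was 13248 and 13324 TPM (transcripts scaled to length and library), against 19359 and 18751 TPM in Control cells. Of 16 markers of fibroblasts, lymphocytes, epithelium and endothelium, 8 were listed, and together they reached at most 1.19 TPM in shMettl3 libraries and 0.22 TPM in Control libraries, while Cd3e and Epcam were among those not listed. The part of these marker differences in the results below was not tested. Whether replicate libraries are separate cultures is not stated, and p-values therefore reflect only the spread between these libraries, which may be technical. Changes are log2 fold changes, shMettl3 over Control, with n = 2 libraries per group. Calls and adjusted p-values are from the quasi-likelihood test of edgeR with Benjamini-Hochberg adjustment over all tested genes, at a threshold of 0.05.

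Most of these genes changed little. Of the 67, 66 had enough reads to be tested, and the exception, Srsf12, had at most 1 count per library. In shMettl3 cells 10 members rose and 15 fell, and 41 were not called. The 25 calls are 37.9% of the tested members, beside 43.7% of all 11035 tested genes (21.4% higher and 22.3% lower). The median log2 fold change was -0.04 over the members and 0.01 over all tested genes. Sizes were small, since 3 of 66 members (4.55%) were fitted past a 1.5-fold change and 0 past 2-fold. Past 1.5-fold lay 21.1% of all tested genes and 14.2% of the 8627 genes with a mean of at least 8.17 CPM, the mean of the lowest tested member. The libraries of the groups did not overlap for 50 members (75.8%), beside 73.4% of all tested genes. With shMettl3 replicate 1 left out, 3 members rose and 10 fell, and with shMettl3 replicate 2 left out 6 rose and 7 fell.

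**Figure D1:**
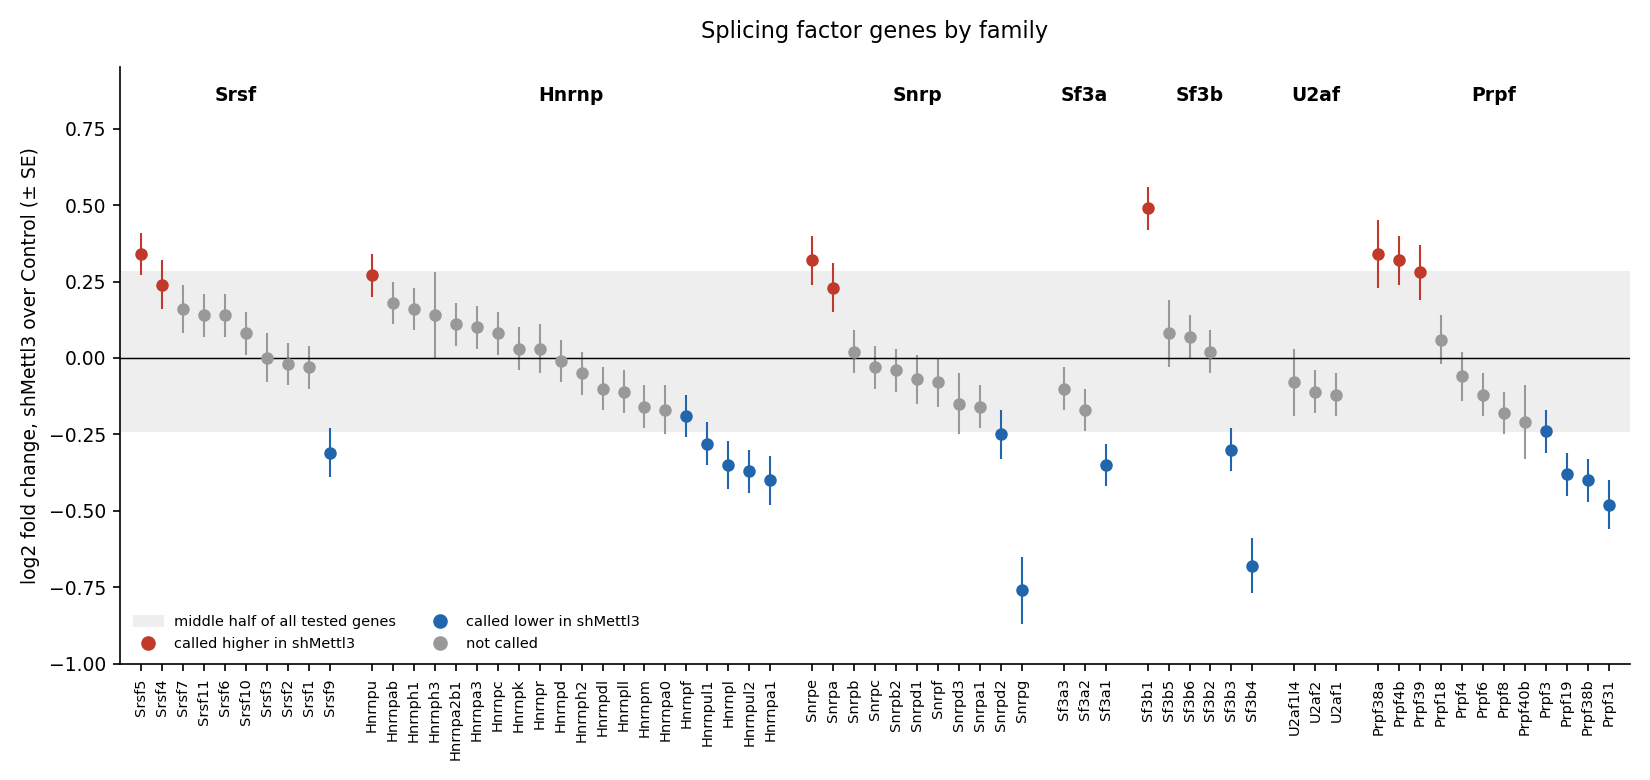
Log2 fold change, shMettl3 over Control, with its standard error, for 65 of the 66 tested splicing factor genes, ordered within each family (n = 2 libraries per group). Red points were called higher and blue points lower; the grey band runs from the lower to the upper quartile of all tested genes, -0.24 to 0.28, and Snrpg, Sf3b4 and Sf3b1 lie far outside it.

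**Figure D2:**
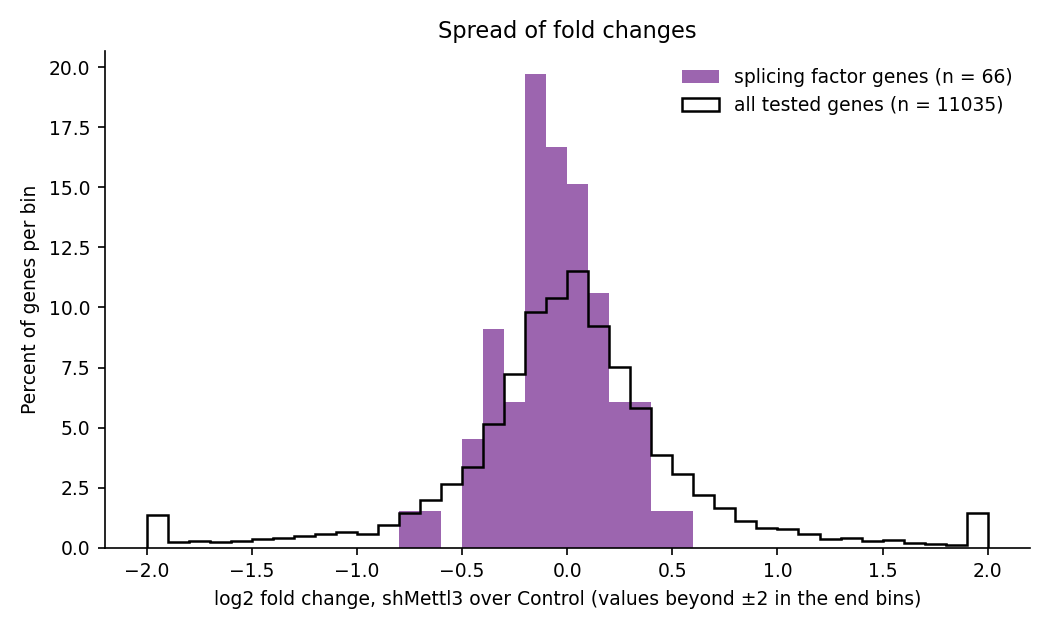
Percent of genes in each log2 fold change bin of width 0.1, shMettl3 over Control, for the 66 splicing factor genes (filled) and all 11035 tested genes (outline). The members' 10th and 90th percentiles are -0.36 and 0.27, against -0.59 and 0.62 for all tested genes; values beyond 2 on either side fall in the end bins.

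The direction of small changes depends on the scaling. With the TMM factors used here 40.0% of the called members rose, against 60.7% with library size alone (17 rose, 11 fell), 60.0% with the authors' FPKM (18 and 12) and 71.4% with their TPM (20 and 8). Of all called genes 48.9% rose with TMM, 64.1% with library size alone, 63.2% with FPKM and 70.1% with TPM. Removal of the trend with transcript GC content turned the members' share to 20.8% (5 and 19), while that of all called genes was 48.1%. These scalings moved the median log2 fold change of all tested genes to 0.11, 0.10, 0.15 and 0.00. Log2 fold changes given without a named scale or setting refer to TMM scaling. The calls on 10 members held in all 15 alternatives, including each fit that left out 1 library. Among these were the rises of Sf3b1 and Srsf5 and the falls of Snrpg, Sf3b4, Prpf31, Hnrnpa1, Prpf38b, Prpf19 and Hnrnpul2.

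**Figure D3:**
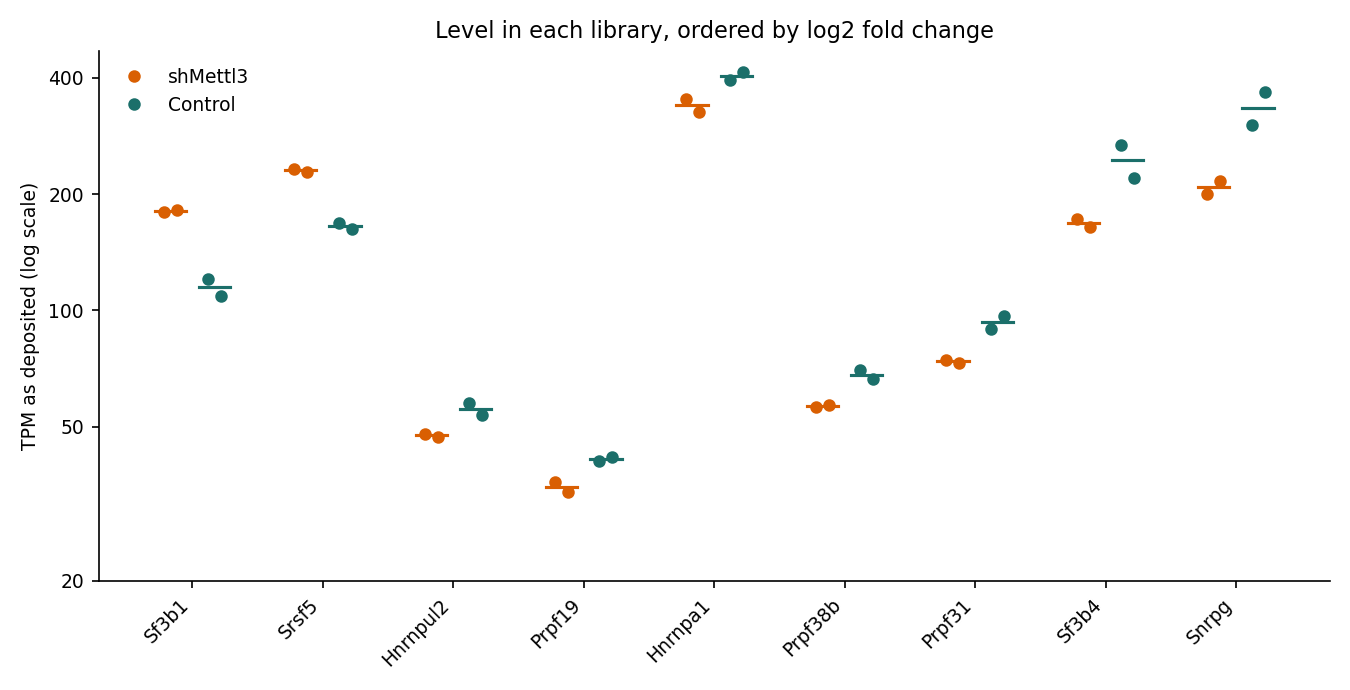
Level in TPM as deposited, on a log axis, of 9 genes whose call held in every alternative, ordered from the largest rise to the largest fall; dots are the 2 libraries of each group and bars their means. In each gene both shMettl3 libraries lie on one side of both Control libraries. The choice of genes by calls held on TPM and without each library favours this separation. Groups did not overlap in CPM for 73.4% of all tested genes. Sf3b1, for example, was at 180 and 182 TPM in shMettl3 cells against 120.3 and 109 TPM in Control cells.

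METTL3 is best known to methylate the adenosine of the sequence written GGACT in DNA letters, and such sites are frequent near stop codons. To show what these mRNAs hold, the GGACT nearest to the end of the coding sequence is given below for 7 members whose call held in every alternative and whose GENCODE transcript contains one. The motif is in capitals in a window of 25 bases, read in the direction of the mRNA. Methylation was not measured, and a match is not a methylated site.
Sf3b1: gtacttgtgtGGACTctaaaaggaa
Hnrnpa1: aaaaactccaGGACTgtatttgtga
Hnrnpul2: gggctcttggGGACTgcagagcata
Prpf19: ggtgggggtgGGACTttaggaggag
Prpf31: aggacataaaGGACTggagcttctg
Prpf38b: cagacctgtgGGACTggtttgagtc
Sf3b4: ccagcagcagGGACTccaggggctg
The windows of Sf3b1 (chr1:54986117-54986141, minus strand, GRCm38), Hnrnpa1 (chr15:103244405-103244429, plus), Hnrnpul2 (chr19:8832230-8832254, plus), Prpf19 (chr19:10905195-10905219, plus) and Prpf31 (chr7:3640956-3640980, plus) lie in the 3′ UTR. Those of Prpf38b (chr3:108907806-108907830, minus) and Sf3b4 (chr3:96174442-96174466, plus) lie in the coding sequence. The motif starts 44 bases past the coding sequence in Prpf31, 73 in Prpf19, 174 in Hnrnpa1, 705 in Hnrnpul2 and 1203 in Sf3b1. It starts 439 bases before the end of the coding sequence in Sf3b4 and 1101 before it in Prpf38b. The transcripts of Srsf5 and Snrpg, which rose and fell, hold 0 matches.

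Of 10 tested Srsf genes 2 rose and 1 fell, with a median of 0.11. These calls are 30% of the family, beside 43.7% of all tested genes. With either shMettl3 library left out 1 rose, and none fell without shMettl3 replicate 2. On the TPM scale 6 rose and 0 fell. Srsf5 (Entrez gene 20384), an SR protein that promotes exon inclusion, had 194 and 189 CPM in shMettl3 cells against 151.4 and 151.5 CPM in Control cells. The groups did not overlap, and the change was 0.34 (SE 0.07, adjusted p = 0.00209). Srsf4 (57317), a close relative, had 59.1 and 61.1 CPM against 47.5 and 54.2 CPM in Control cells (0.24, SE 0.08, adjusted p = 0.0354). Its call was lost without Control replicate 1, where the value was 0.14, without either shMettl3 library and in DESeq2, and the value was 0.38 on the TPM scale. Srsf9 (108014) had 57.9 and 52.3 CPM in shMettl3 cells against 65.7 and 71.0 CPM in Control cells (-0.31, SE 0.08, adjusted p = 0.00921). Its call was lost without shMettl3 replicate 2 and on the TPM scale, where it was -0.18.

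The other tested SR protein genes were not called. Srsf2 (20382), which encodes SC35, a protein of nuclear speckles, was the most abundant of the family at a mean of 354 TPM. It had 400.1 and 395 CPM in shMettl3 cells against 399 and 410.1 CPM in Control cells (-0.02, SE 0.07), and it had the opposite sign on FPKM (0.06), on TPM (0.12) and with library size alone (0.07). Srsf3 (20383), which also takes part in mRNA export and binds the m6A reader YTHDC1, had 262 and 240.0 CPM against 257 and 243 CPM in Control cells (0.00, SE 0.08). Srsf10 (14105), a splicing repressor in its dephosphorylated form, which is also bound by YTHDC1, had 137 and 128 CPM against 129.5 and 121 CPM in Control cells (0.08, SE 0.07). In each of these 3 genes the groups overlapped. Srsf6, Srsf7 and Srsf11 had values between 0.14 and 0.16 with groups that did not overlap, as in 73.4% of all tested genes. Srsf1, the first SR protein described, was at -0.03. On the length-scaled TPM the summed level of the family was 1500 and 1434 TPM in shMettl3 cells against 1290.0 and 1238 TPM in Control cells. On that scale the median log2 fold change of all tested genes was itself 0.15.

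Kinases phosphorylate SR proteins and so set where these proteins reside and whether they are active. Of 9 tested genes in this list of SR protein kinases and phosphatases 4 rose and 2 fell, which is 66.7%, beside 43.7% of all tested genes. Prpf4b, a kinase of the spliceosome that rose, is counted with the Prpf genes and not in this list. With either shMettl3 library left out 3 rose. Clk2, a dual-specificity kinase of nuclear speckles, had 25.2 and 24.5 CPM in shMettl3 cells against 50.8 and 44.9 CPM in Control cells (-0.94, SE 0.09, adjusted p = 1.35e-05). Dyrk2, a related kinase, had 32.4 and 30.2 CPM against 23.8 and 21.9 CPM in Control cells (0.46, SE 0.09). Clk1 rose by a log2 fold change of 0.42 (SE 0.08), Clk3 by 0.37 and Srpk1, a cytoplasmic SR protein kinase, by 0.29. The call on Srpk1 was lost without either shMettl3 library. Ppm1g, a phosphatase bound to the spliceosome, had 129 and 135 CPM against 168 and 181 CPM in Control cells (-0.40, SE 0.07). Members of the Clk family thus lay on both sides of 0, and Clk4 was at 0.05 (SE 0.10) without a call.

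Of 20 tested Hnrnp genes 5 fell, 1 rose and 14 were not called, with a median of -0.03. These calls are 30% of the family, beside 43.7% of all tested genes, of which 22.3% fell. These counts turned to 3 that fell and 6 that rose on the TPM scale, to 8 and 0 with the GC trend removed, to 3 and 0 without shMettl3 replicate 1 and to 2 and 0 without shMettl3 replicate 2. Without Control replicate 1 they were 7 and 2, and without Control replicate 2 they were 5 and 2. Hnrnpa1 (15382), which opposes SR proteins at many exons, had 343 and 319 CPM in shMettl3 cells against 418 and 454 CPM in Control cells. The groups were apart, with a change of -0.40 (SE 0.08, adjusted p = 0.0016), and the value was -0.25 on the TPM scale. Hnrnpul2 (68693), an hnRNP U-like protein, had 113 and 112 CPM against 150.3 and 139 CPM in Control cells (-0.37, SE 0.07, adjusted p = 0.00168). On the TPM scale it was -0.23.

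Hnrnpl (15388), which binds CA repeats and regulates the exons of the CD45 gene, had 156 and 148 CPM in shMettl3 cells against 184 and 203 CPM in Control cells (-0.35, SE 0.08, adjusted p = 0.00338). Its call was lost without shMettl3 replicate 2, and its value was -0.20 on the TPM scale. Hnrnpul1 (232989), the other U-like gene, had 163 and 164 CPM against 195 and 202 CPM in Control cells (-0.28, SE 0.07, adjusted p = 0.00736). It was called in neither fit that left out a shMettl3 library, nor with library size alone (-0.18), FPKM or TPM (-0.13). Hnrnpf (98758), which binds runs of G, was the most abundant member of all 67, at a mean of 532 TPM. It had 667 and 647 CPM against 759 and 739 CPM in Control cells (-0.19, SE 0.07, adjusted p = 0.0411), and the call was lost in 8 of 15 alternatives, with a value of -0.05 on the TPM scale.

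Hnrnpu (51810), a nuclear scaffold protein that binds chromatin and RNA, was the hnRNP gene that rose. It had 790.4 and 824 CPM in shMettl3 cells against 687 and 651 CPM in Control cells (0.27, SE 0.07, adjusted p = 0.00863). The call was lost without either shMettl3 library and with the GC trend removed (0.13). In TPM the ratio of Hnrnpu to Hnrnpul2 was 7.36 and 7.76 in shMettl3 cells against 4.95 and 4.92 in Control cells. This ratio restates a called rise and a called fall. A pair of hnRNPs tied to m6A were not called. Hnrnpa2b1 (53379), reported as an m6A reader, had 633 and 602 CPM against 577 and 566 CPM in Control cells (0.11, SE 0.07), and it was called higher with library size alone (0.21), FPKM (0.23) and TPM (0.29). Hnrnpc (15381), which binds U-rich stretches that m6A can expose, had 317 and 299.7 CPM against 301 and 283 CPM in Control cells (0.08, SE 0.07), and it was called higher with FPKM (0.20) and TPM (0.26). The remaining uncalled hnRNP genes lay between -0.17 for Hnrnpa0 and 0.18 for Hnrnpab, with Hnrnpk, a poly(C)-binding protein, at 0.03.

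The proteins of the Sm ring bind the RNA of most spliceosomal snRNPs as 1 ring with each protein present once. Of 11 tested Snrp genes, which include genes outside this ring such as Snrpa and Snrpc, 2 rose and 2 fell, with a median of -0.07. These calls are 36.4% of the family, beside 43.7% of all tested genes (21.4% higher and 22.3% lower). Without shMettl3 replicate 1, 0 rose and 1 fell, without shMettl3 replicate 2 the counts were 1 and 1, and without Control replicate 1 they were 1 and 2. Snrpg (68011), which encodes SmG, had 31.2 and 30.9 CPM in shMettl3 cells against 46.7 and 58.8 CPM in Control cells. This was the largest change of any tested member (-0.76, SE 0.11, adjusted p = 4.05e-04), and it lay between -0.93 and -0.59 over the alternatives. Snrpe (20643), which encodes its neighbour SmE, rose, with 67.7 and 63.3 CPM against 49.3 and 55.6 CPM in Control cells (0.32, SE 0.08, adjusted p = 0.00876). The call on Snrpe was lost without shMettl3 replicate 1 and with the GC trend removed (0.20). In TPM the ratio of Snrpe to Snrpg was 1.58 and 1.45 in shMettl3 cells against 0.747 and 0.670 in Control cells. This pair sets a called rise over a called fall, so the ratio restates their changes. Processed copies of Sm genes exist in the genome and could share reads with them, so these values carry that uncertainty. The estimated counts of all Snrp genes were whole. This cannot settle the question, because the annotation used for counting was not given.

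Snrpb (20638), the most abundant Snrp gene at 339 TPM, had 205 and 212 CPM in shMettl3 cells against 203 and 209 CPM in Control cells (0.02, SE 0.07). The groups overlapped. Snrpd2, another Sm gene, was lower (-0.25, SE 0.08, adjusted p = 0.0206), without a call in 6 of 15 alternatives and at -0.15 on the TPM scale. Snrpa, the U1 snRNP protein that binds a stem-loop of the U1 RNA, was higher (0.23, SE 0.08, adjusted p = 0.0385), also without a call in 6 of 15. The value of Snrpa was 0.13 without Control replicate 1 and 0.36 on the TPM scale. The other Sm genes Snrpd1, Snrpd3 and Snrpf and the snRNP-specific genes Snrpc, Snrpa1 and Snrpb2 lay between -0.16 and -0.03 and were not called. The summed TPM of the family, 2345 and 2338 in shMettl3 cells against 2262 and 2382 in Control cells, overlapped between groups.

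The SF3A and SF3B parts of the U2 snRNP hold the branch site. Of 6 Sf3b genes 1 rose and 2 fell, and of 3 Sf3a genes 1 fell. These calls are 50.0% of the Sf3b and 33.3% of the Sf3a genes, beside 43.7% of all tested genes (21.4% higher and 22.3% lower). Without either shMettl3 library 1 Sf3b gene fell, and without Control replicate 2 there were 2 that rose. No Sf3a gene fell without shMettl3 replicate 2, and 2 fell without Control replicate 1. Sf3b1 (81898), the large scaffold that clamps the branch site, had 468.5 and 480.1 CPM in shMettl3 cells against 347 and 327 CPM in Control cells (0.49, SE 0.07, adjusted p = 2.31e-04). Sf3b4 (107701), a subunit that contacts the intron upstream of the branch site, had 165 and 157 CPM against 278 and 236 CPM in Control cells (-0.68, SE 0.09, adjusted p = 1.19e-04). Neither pair of groups overlapped. The ratio of Sf3b1 to Sf3b4, in TPM, was 1.04 and 1.11 in shMettl3 cells against 0.448 and 0.494 in Control cells. It restates the called rise and the called fall from which the pair was formed. Over the alternatives Sf3b1 lay between 0.37 and 0.66 and Sf3b4 between -0.80 and -0.53.

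The other Sf3b genes and the Sf3a genes lay closer to 0. Sf3b3, a scaffold that binds Sf3b1 directly, fell (-0.30, SE 0.07, adjusted p = 0.00455), and this call was lost without either shMettl3 library and on the TPM scale (-0.15). Sf3b2, Sf3b5 and Sf3b6, the last of which sits at the branch site, lay between 0.02 and 0.08 and were not called. Sf3a1 fell (-0.35, SE 0.07, adjusted p = 0.00202), with the call lost without shMettl3 replicate 2 and on the TPM scale (-0.20). Sf3a2 (20222), the most abundant Sf3a gene at 127 TPM, had 107 and 99.0 CPM in shMettl3 cells against 116 and 116 CPM in Control cells (-0.17, SE 0.07, adjusted p = 0.0727). Sf3a3 was at -0.10.

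None of the 3 U2af genes was called by edgeR, DESeq2 or limma-voom, and 0 had an unadjusted p below 0.05 in edgeR. Of all tested genes 43.7% were called in edgeR. U2af2 (22185), which binds the polypyrimidine tract and was the most abundant of its family at 253 TPM, had 318 and 308 CPM in shMettl3 cells against 334 and 340.2 CPM in Control cells (-0.11, SE 0.07, adjusted p = 0.234). U2af1 (108121), which reads the AG at the intron end, had 112 and 109.8 CPM against 116 and 125 CPM in Control cells (-0.12, SE 0.07, adjusted p = 0.193), and it was called lower without Control replicate 1 (-0.18). On the TPM scale the signs turned, to 0.03 for U2af2 and 0.01 for U2af1. The paralog U2af1l4 was at -0.08 (SE 0.11). The ratio of U2af2 to U2af1 in TPM was 1.07 and 1.04 in shMettl3 cells against 1.07 and 1.01 in Control cells, so these libraries overlapped.

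Of the 13 Prpf genes 4 rose and 4 fell (61.5%, beside 43.7% of all tested genes), with a median of -0.12. Without shMettl3 replicate 1, 1 rose and 3 fell, and without Control replicate 2, 2 rose and 5 fell. With the GC trend removed 1 rose and 4 fell. Prpf38a (230596), a protein of the spliceosome before activation, had 55.0 and 45.1 CPM against 42.0 and 37.1 CPM in Control cells (0.34, SE 0.11, adjusted p = 0.028). Its call was lost without shMettl3 replicate 1 (0.19), without Control replicate 2, in DESeq2 and with the GC trend removed. Prpf4b (19134), a kinase of the spliceosome, had 82.0 and 81.6 CPM against 70.3 and 60.6 CPM in Control cells (0.32, SE 0.08, adjusted p = 0.0086). It was called neither without shMettl3 replicate 1 nor with the GC trend removed (0.18), and it was 0.21 without Control replicate 2 and 0.53 on the TPM scale. Prpf39, named after a yeast U1 snRNP protein, rose (0.28, SE 0.09), but its call was lost in 5 of 15 alternatives, and it was 0.08 with the GC trend removed, 0.17 without Control replicate 2 and 0.51 on the TPM scale.

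Among the Prpf genes that fell were proteins of the tri-snRNP. Prpf31 (68988), which binds U4 RNA and is mutated in inherited retinal degeneration in humans, had 134 and 132 CPM in shMettl3 cells against 175 and 195 CPM in Control cells (-0.48, SE 0.08, adjusted p = 4.49e-04). Prpf38b (66921), a relative of Prpf38a, had 102 and 103 CPM against 138 and 133 CPM in Control cells (-0.40, SE 0.07, adjusted p = 6.97e-04). Prpf19, the ubiquitin ligase that gives the Prp19 complex its name, fell (-0.38, SE 0.07, adjusted p = 0.00131, and -0.23 on the TPM scale). Prpf3, which binds the paired U4 and U6 RNAs, fell (-0.24, SE 0.07, adjusted p = 0.0205), without a call in 7 of 15 alternatives and at -0.10 on the TPM scale. Prpf8 (192159), the scaffold of the active centre and the most abundant Prpf gene at 96.3 TPM, had 406 and 429 CPM against 480.5 and 467.5 CPM in Control cells (-0.18, SE 0.07, adjusted p = 0.0553). It was called with no filter on low counts and without Control replicate 2. Prpf4, Prpf6, Prpf18 and Prpf40b, a relative of a yeast U1 snRNP protein, were not called and lay between -0.21 and 0.06.

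Genes of the same pathway outside these families were counted by list. None of these counts was adjusted or tested as a set, and each is read beside the 43.7% of all tested genes. The snRNP proteins whose symbols start with Snrnp had 1 of 7 called, Snrnp70, the U1 protein, with 288 and 250.1 CPM in shMettl3 cells against 224 and 231 CPM in Control cells (0.24, SE 0.08). This call was lost in DESeq2, without Control replicate 1 and without shMettl3 replicate 1, where the value was 0.14. The Sm-like LSm proteins, most of which form the ring on U6 RNA and the decapping ring, had 0 of 10 called in edgeR's test. Of these 1, Lsm7, had an unadjusted p below 0.05 (-0.27, SE 0.10). DESeq2 and limma-voom called 0, and other settings at most 2 in either direction. In the list of the SMN complex and Sm protein methylation, 4 of 12 fell, among them Ddx20 (-0.35, SE 0.09) and Wdr77 (-0.34, SE 0.07), a partner of the methyltransferase Prmt5, and 0 rose. With either shMettl3 library left out 1 of them fell, and with TPM 0 did. The exon junction complex had 3 of 11 fall and 0 rise, or 2 and 0 without shMettl3 replicate 2 and 3 and 1 without Control replicate 1, with Sap18 at 7.32 and 7.70 CPM in shMettl3 cells against 12.9 and 13.0 CPM in Control cells (-0.78, SE 0.13). The list of spliceosomal helicases and the GTPase Eftud2 had 1 of 12 rise and 1 fall. That rise was not called in DESeq2, in edgeR without robust fitting or with no filter on low counts. The Prp19 complex and its partners had 2 of 17 rise and 1 fall. No helicase rose without either shMettl3 library, none fell without shMettl3 replicate 1, and 2 fell without Control replicate 1. In the Prp19 list none rose or fell without shMettl3 replicate 1, 1 rose in each of the other fits without a library, none rose in DESeq2 or with the GC trend removed, and 6 rose with TPM.

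Among the other splicing regulators 7 of 47 rose and 9 fell (34.0%), or 18 and 2 with TPM. Without shMettl3 replicate 1 these counts were 4 and 6, without shMettl3 replicate 2 they were 5 and 2, and without Control replicate 1 they were 12 and 9. Past 1.5-fold lay 2 of the 47 (4.26%), beside 21.1% of all tested genes, and these were Rbfox1 and Pcbp4. Rbfox1, a tissue-restricted regulator best known in neurons and muscle, had 9.34 and 10.0 CPM in shMettl3 cells against 62.5 and 58.8 CPM in Control cells (-2.65, SE 0.09, adjusted p = 1.3e-08). Pcbp4, a poly(C)-binding protein, had 6.13 and 6.72 CPM against 2.29 and 2.17 CPM in Control cells (1.53, SE 0.20). Rbmx, which encodes hnRNP G, fell (-0.38, SE 0.09), with its call lost without shMettl3 replicate 2 and on the TPM scale (-0.26). Fubp1, which binds single-stranded DNA and pre-mRNA, rose (0.46, SE 0.07). Of 18 replication genes 5 rose and 0 fell (27.8%), among them Mcm3 (0.48, SE 0.08). Without Control replicate 1, 3 rose and 2 fell, and without shMettl3 replicate 1, 3 rose. The part of these genes in the values above was not tested.

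The called members differed in base composition. The 10 members that rose had a median transcript GC content of 42.3%, against 50.0% for the 15 that fell and 45.4% for the 41 not called. Across all tested genes with a matched transcript the medians were 48.3% for genes that rose, 52.9% for genes that fell and 49.9% for the rest, so fold changes moved with GC content in the whole table. Over the 66 members Spearman's rho between GC content and log2 fold change was -0.54, against -0.23 over 10852 tested genes. These are descriptions across genes, which share libraries and are not independent. With the GC trend removed 20 of the 25 calls remained, and those of Hnrnpu, Snrpe, Prpf38a, Prpf39 and Prpf4b were lost. GGACT occurred at a median of 0.319 per kilobase in the members that rose, 0.977 in those that fell and 0.734 in those not called, against 1, 1.1 and 1.04 in all tested genes. The density of this motif itself moved with GC content (rho 0.33 over the members), and the part of either feature in the changes was not tested.

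**Figure D4:**
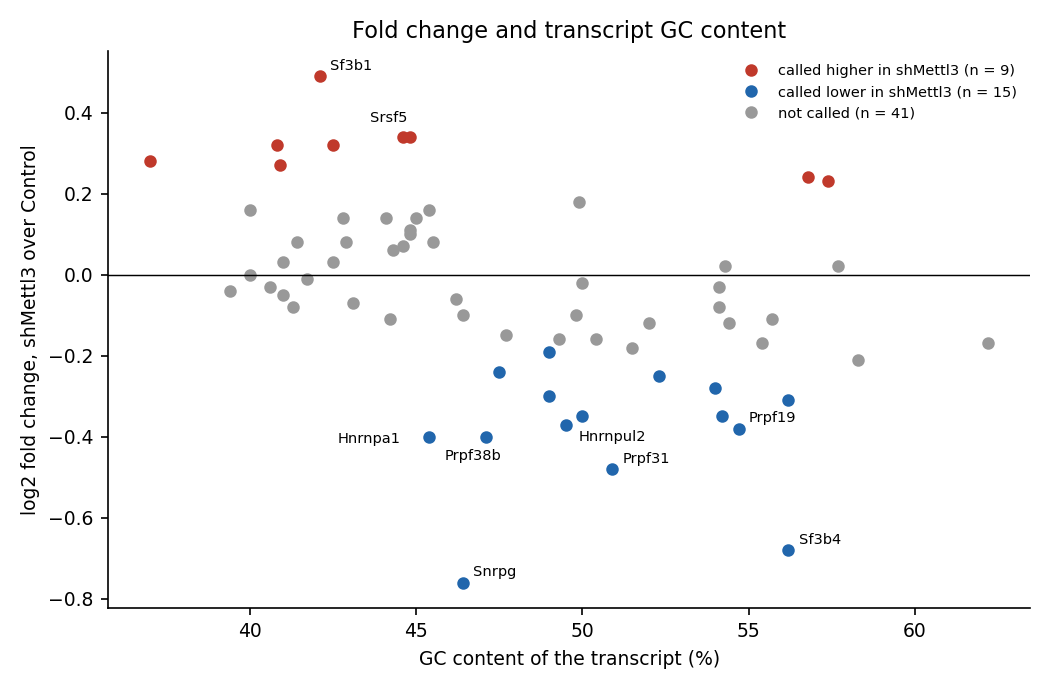
Log2 fold change, shMettl3 over Control, against the GC content of the GENCODE transcript for 65 of the 66 tested splicing factor genes, coloured by call, with 9 genes named whose call held in every alternative. Genes that rose gather at low GC content (median 42.3% over all 10) and genes that fell at higher GC content (median 50.0%), with Srsf4 (56.8%) and Snrpa (57.4%) as rises at high GC content.

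**Figure D5:**
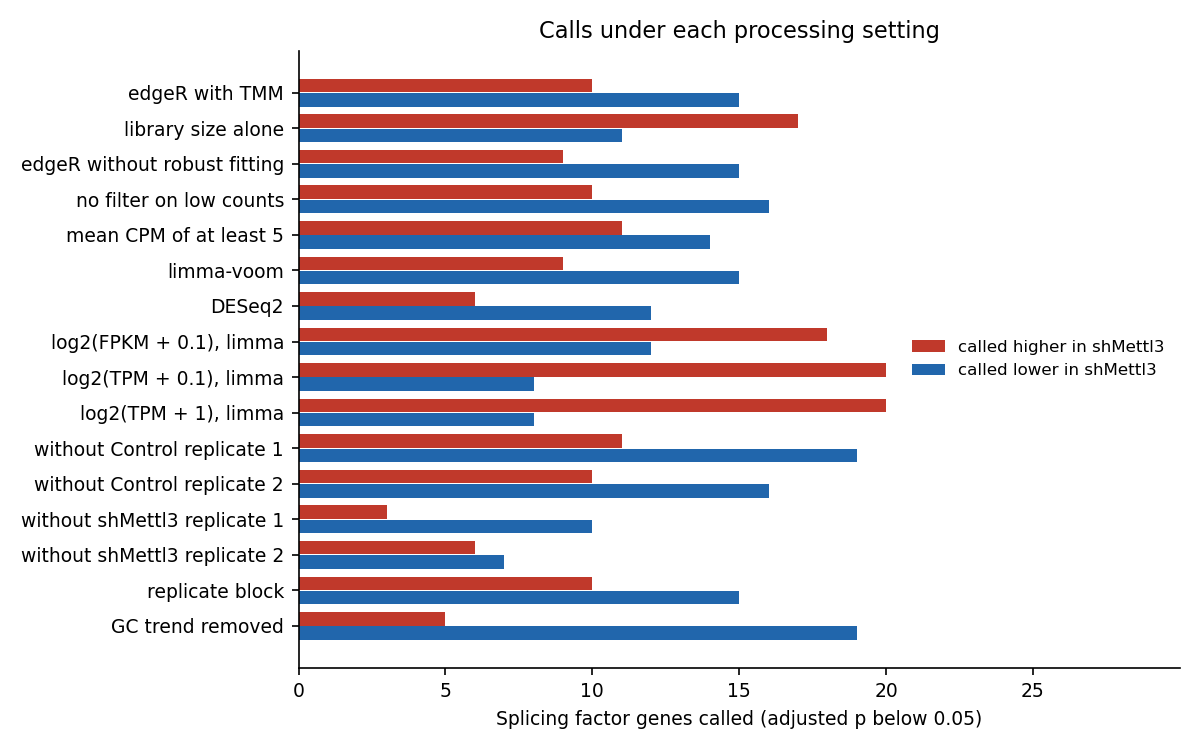
Number of splicing factor genes called higher (red) and lower (blue) in shMettl3 cells at an adjusted p below 0.05 under each processing setting. With TMM 10 rose and 15 fell, with library size alone 17 and 11, with TPM 20 and 8, and with the GC trend removed 5 and 19.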

How the data were processed

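The deposited table holds 14435 genes and, per library, an estimated count, FPKM and TPM. The submitters' processing notes name mm9 as genome build and, without roles, RSEM 1.2.12, HISAT2 2.0.4 and Bowtie2 2.2.5. The annotation and filters were not given in the sources used here. Per the labels' protocols, cDNA was made from the poly(A) tail by template switching, amplified by PCR and sequenced as single reads. The protocols mention neither molecular identifiers nor a strand-marking step, so reads of overlapping antisense genes cannot be told apart here. The estimated counts, deposited without normalization, were rounded. They are not whole for 5 members (Hnrnpab, Hnrnpf, Hnrnph3, Hnrnpu and Prpf39), which happens when the counting splits reads among genes. The authors' FPKM are scaled to length and library size, and their TPM are shares of transcripts.

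Members, gene lists and tests were chosen with earlier results of these data known. The main test was edgeR 4.0.16 (R 4.3.3), robust quasi-likelihood on the group, with filterByExpr (minimum count 10, total 15; 11035 genes kept), TMM factors and Benjamini-Hochberg adjustment over all tested genes. There were 2 residual degrees of freedom. Standard errors were derived by dividing each fitted log2 change by the square root of its F statistic. CPM are TMM-scaled, and TPM is used to compare levels between genes. The fit was also run on simulated counts with few changed genes and the same dispersion for every gene. These libraries differ from that setting, so the run checks the code and does not test the calls given here. Alternatives used limma 3.58.1 and DESeq2 1.42.0. Named with values in every library were, for Srsf, Hnrnp and the core families together, the 4 largest called rises and falls with at least 10 CPM, the most abundant member of each family and 8 genes fixed for their roles; of other lists, the largest called changes. Clk3, Clk4, Srpk1 and Lsm7 were chosen after their values were seen. The ratio pairs, except U2af2 to U2af1, set a called rise over a called fall of the same family. Of the called members 1 is counted but not reported by name here. Transcripts and motif windows are from GENCODE M21 on GRCm38 and promoters from RefSeq on GRCm38.p6, another build than mm9, and 10852 tested genes matched a transcript.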

Additional observations from a re-analysis of the deposited data

How the results depend on the processing

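All 25 called members kept their direction in all 15 alternatives, and 10 kept their call in each. Members that rose and fell numbered 17 and 11 with library size alone, 18 and 12 with FPKM, 20 and 8 with TPM at either pseudocount (0.1 or 1), 6 and 12 in DESeq2 and 5 and 19 with the GC trend removed, an alternative chosen after seeing the data. With 1 library left out they ranged from 3 to 11 and from 7 to 19. In those fits the lone library of a group is assumed to vary like the other group's. The Control libraries differed more from each other than the shMettl3 libraries did (chi-square per degree of freedom 11.5 against 4.15). Fits without a shMettl3 library thus took their spread from the Control pair. There some estimates barely moved, as for Hnrnpul1 (-0.27 and -0.29, beside -0.28), and others did, as for Prpf38a (0.19 without shMettl3 replicate 1, beside 0.34). Srsf rises numbered 5 with library size or FPKM, 6 with TPM, 1 in DESeq2 and 1 to 3 with 1 library left out, and Srsf falls 0 with TPM and 0 to 1 with 1 library left out. Hnrnp rises numbered 5 with library size, 6 with FPKM or TPM, 2 at a mean CPM of at least 5, 0 with the GC trend removed and 0 to 2 with 1 library left out. Hnrnp falls numbered 3 with library size, FPKM or TPM, 8 with the GC trend removed and 2 to 7 with 1 library left out. Core rises (Snrp, Sf3a, Sf3b, U2af and Prpf) numbered 4 in DESeq2, 3 with the GC trend removed and 2 to 6 with 1 library left out, and core falls 5 with TPM and 5 to 11 with 1 library left out. The members' median was 0.05 with library size, 0.03 with FPKM, 0.09 with TPM and -0.09 with the GC trend removed. Among all tested genes 1498 and 1505 fell with TPM at the pseudocounts of 0.1 and 1, and with 1 library left out 1503 to 2543 rose and 1592 to 2781 fell. Of uncalled genes, signs turned for Srsf2 (0.07 with library size, 0.06 with FPKM, 0.12 with TPM), U2af1 (0.01) and U2af2 (0.03) with TPM, and with the GC trend removed for Srsf10 (-0.05), Srsf3 (-0.15), Hnrnpc (-0.04) and Sf3a2 (0.01). Srsf3 was also -0.01 with no filter, 0.00 in DESeq2, -0.04 without Control replicate 2 and -0.06 without shMettl3 replicate 1, and Snrpb ranged from -0.02 to 0.04 with 1 library left out, at -0.02 without Control replicate 1 and -0.01 without shMettl3 replicate 2. The cause of these shifts was not tested. The libraries share only replicate numbers (correlation of deviations 0.146 over 11035 genes, with 2 pairs). With these numbers as a replicate block, 10 members rose and 15 fell, so 25 of 25 calls remained, and 2548 and 2568 of all tested genes rose and fell.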

Other observations

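Promoters of 300 bases, from 250 before to 50 after the start, were found in RefSeq (GRCm38.p6) for 58 of the 67 splicing factor genes, 76 promoters in all. On either strand the cAMP response element core TGACGT was in 18 of them (23.7%), against 11.9% of the 11236 promoters of tested genes. The E-box CACGTG was in 11 (14.5%, against 10.2%) and CCAAT in 37 (48.7%, against 38.3%). CACGTG is its own reverse complement, and it can overlap TGACGT in part. A match is a description of letters, not a bound site.

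The splicing factor genes together took 1.02% of all TPM in shMettl3 cells and 0.960% in Control cells. The hnRNPs made up 0.416% in shMettl3 cells and 0.381% in Control cells. The Snrp genes made up 0.234% in shMettl3 cells and 0.232% in Control cells, and the Srsf genes 0.147% in shMettl3 cells and 0.126% in Control cells. On this scale the summed Hnrnp level was 4189 and 4123 TPM in shMettl3 cells against 3868 and 3745 TPM in Control cells. More Hnrnp genes fell than rose on the TMM scale. The median log2 fold change of all tested genes was itself 0.15 on TPM, so these sums are read beside a shift of the whole table. Between transcript length and log2 fold change Spearman's rho was 0.07 over the 66 members and 0.03 over all tested genes, given as descriptions across genes.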
